A study of Arabidopsis thaliana with 14 samples.

Results

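The circRNAs described here are those of the mixed Arabidopsis thaliana library that lie on chromosomes 1 to 5 and for which the deposited list names at least 1 miRNA with a predicted site. They were taken by that column of the list alone, and they were 730 of 974 nuclear circRNAs (74.9%, Wilson 95% interval 72.1 to 77.6) and of 1217 circRNAs in the library. The other 244 nuclear circRNAs carry a dash in place of a miRNA and served as the reference. The mixed sample pooled equal amounts of total RNA from whole Columbia-0 plants of 7 developmental stages, up to senescence, grown on a light/dark cycle without any stress. The RNA was depleted of rRNA and digested with RNase R, which removes linear RNA. It is 1 library of pooled RNA, so no value has a replicate and no test between conditions was possible, and the other 13 libraries of the series were not compared. The 1217 circRNAs of this library rested on 8987 back-spliced reads, of which 6619 were nuclear and 5206 belonged to the 730 circRNAs with listed miRNAs. Intervals given below cover counting error only, and reads amplified by PCR without molecular identifiers are not independent molecules. The intervals treat circRNAs and pairs as independent. Several miRNA names share 1 sequence and overlapping circRNAs share sites, so the intervals are too narrow, above all those over pairs.

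CircRNAs are closed RNA rings that form when a splice donor is joined to an acceptor upstream of it. In plants, miRNAs guide Argonaute proteins to target RNAs with which they pair almost over their whole length, and most classical targets are mRNAs of transcription factors and of the miRNA machinery. In animals, pairing of the seed, the bases 2 to 8 from the 5′ end of the miRNA, can be enough, and a few animal circRNAs bind a miRNA at many sites and are known as miRNA sponges. A listed site is a prediction from sequence and is no measurement of binding, and no source used here states which program and settings made this column of the list.

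The list named 382 miRNAs of 195 families for these circRNAs, in 3617 pairs of a circRNA and a miRNA name with 4456 sites. All 382 names matched a mature miRNA of the RefSeq annotation (TAIR10.1), where they stand for 310 different sequences. The mature sequences below are those of the families listed for the most circRNAs, shown 5′ to 3′ with the seed in capitals, and each is followed in the text by the circRNAs that list it.
miR156a-5p: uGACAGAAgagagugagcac
miR156b-3p: uGCUCACCucucuuucugucagu
miR168a-5p: uCGCUUGGugcaggucgggaa
miR168b-3p: cCCGUCUUguaucaacugaau
miR167d: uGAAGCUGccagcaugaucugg
miR167c-3p: uAGGUCAUgcugguaguuucacc
miR5653: uGGGUUGAguugaguugaguuggc
miR5660: cAGGUGGUuagugcaauggaa
miR854a: gAUGAGGAuagggaggaggag
miR164a: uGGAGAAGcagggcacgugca
miR169a-5p: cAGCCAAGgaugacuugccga
miR8165: aAUGGAGGcaagugugaagga
miR5665: uUGGUGGAcaagaucugggau
Identical mature sequences under several names raised the number of pairs. The 5 names miR854a to miR854e share 1 sequence and gave 240 pairs from 48 circRNAs, and the 6 names miR8167a to miR8167f share 1 sequence and gave 192 pairs from 32 circRNAs. Counted by different mature sequence the 3617 pairs became 2640, and by family they became 2334. Grouped by seed, the seed of miR5653 was listed for 53 circRNAs, since miR398 names share it. The seeds of miR5660 and miR854 followed with 48 circRNAs each, and the seed of miR168a-5p with 45.

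No family was listed for more than 58 of the 730 circRNAs, and recurrence was spread over many families. The family miR156, which targets SPL transcription factors and keeps the plant in its juvenile phase, was listed for 58 circRNAs (7.95%, Wilson 95% interval 6.20 to 10.13). The family miR168, which targets the mRNA of AGO1, the main Argonaute slicer, was listed for 57 circRNAs (7.81%, 6.08 to 9.98). The family miR167, which targets auxin response factors, was listed for 53 circRNAs (7.26%, 5.59 to 9.37). Next came miR5653 with 52 circRNAs, miR5660 and miR854 with 48 each, miR164 and miR169 with 42 each, miR8165 with 39 and miR5665 with 38. The families miR164 and miR169 are known to target NAC and NF-YA transcription factors, respectively. The intervals of neighbouring families overlapped throughout this order, so their ranks cannot be told apart. In all, 285 circRNAs listed at least 1 of these 10 families, 36 families were listed for 20 or more circRNAs, and 25 families were listed for 1. Of the 214 annotated families, 19 were listed for none of the 730 circRNAs.

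**Figure D1:**
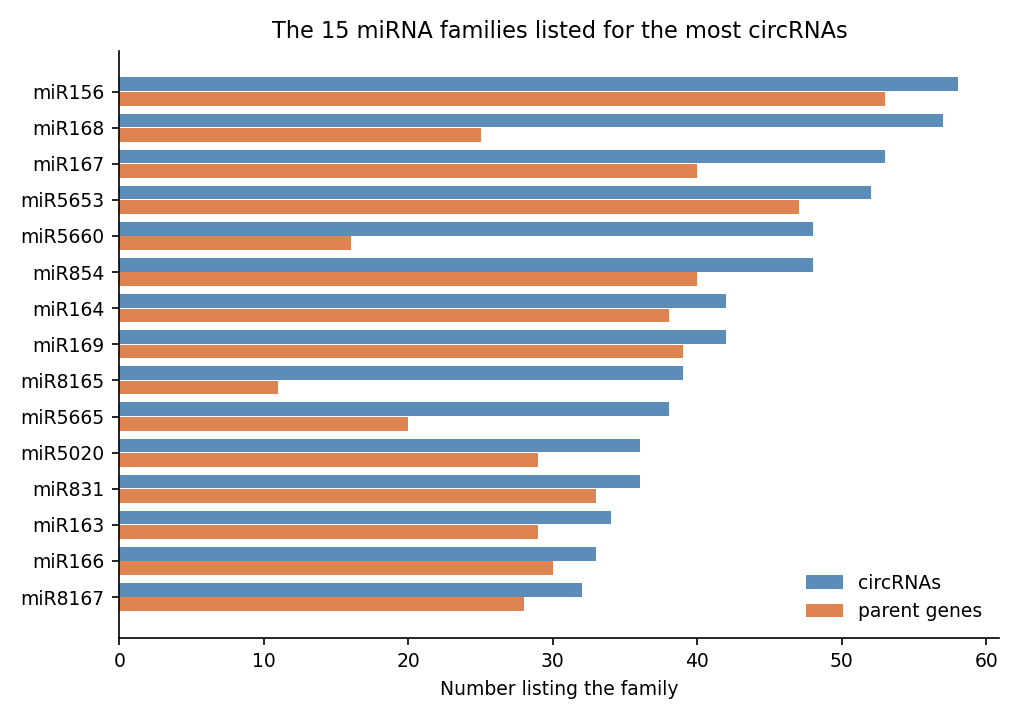
Number of circRNAs (blue) and of parent genes (orange) that list each of the 15 most frequent miRNA families, where a circRNA without a parent gene counts as its own gene. The bars of miR156 are close in length, with 58 circRNAs and 53 genes, whereas miR168, miR5660 and miR8165 have far fewer genes than circRNAs.

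For some families, 1 gene gave most of the circRNAs. Of the 57 circRNAs that list miR168, 31 came from the non-coding RNA gene AT1G15405, and so did 30 of the 48 that list miR5660, 29 of the 39 that list miR8165 and 19 of the 38 that list miR5665. With each parent gene counted once, miR156 was listed for 53 genes, miR5653 for 47, miR167 and miR854 for 40 each, miR169 for 39 and miR164 for 38. On the same count miR168 was listed for 25 genes, miR5665 for 20, miR5660 for 16 and miR8165 for 11. Within a family the arms were unequal. Names of the 3p arm of miR156 were listed for 45 circRNAs. The names marked as its 5p arm and those without an arm, such as miR156i and miR156j, all share the seed of miR156a-5p, and together they were listed for 17 circRNAs. Names of the 5p arm of miR168 were listed for 45 circRNAs and those of its 3p arm for 12. The 5p arm of miR156 and miR168 is the one that guides cleavage of the SPL and AGO1 mRNAs.

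The frequency of a mature miRNA followed its base composition. Over the 349 different mature sequences, GC content and the number of circRNAs that list the sequence had a Spearman correlation of 0.61, given as a description because the sequences of a family are related and all points share 1 library. The median number of circRNAs was 2 for the 143 sequences with a GC content under 40%, of which 33 were listed for none. It was 6 for the 108 sequences of 40% to under 50%, 10 for the 81 sequences of 50% to under 60%, and 14 for the 17 sequences richer in GC than that.

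The 730 circRNAs were longer than the reference, as far as the part of the genome they span. Their median span was 187.5 bp (95% interval from order statistics 182.0 to 197.0), with quartiles of 148.0 and 310.8 bp and a range of 95 to 20441 bp. The median of the dash circRNAs was 152.0 bp (144.0 to 158.0), and their longest spanned 646 bp, which 67 of the 730 exceeded. The intervals of the medians did not overlap. A longer span offers more positions for a site, so span is not independent of the rule that chose the circRNAs. The share of circRNAs with listed miRNAs was 62.8% (Wilson 95% interval 57.0 to 68.2) for the 282 circRNAs of 126 to 150 bp, 76.3% (70.8 to 81.1) for the 262 of 151 to 200 bp, and 96.0% (88.9 to 98.6) for the 75 of 501 to 2000 bp. All 28 circRNAs over 2000 bp had a listed miRNA.

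**Figure D2:**
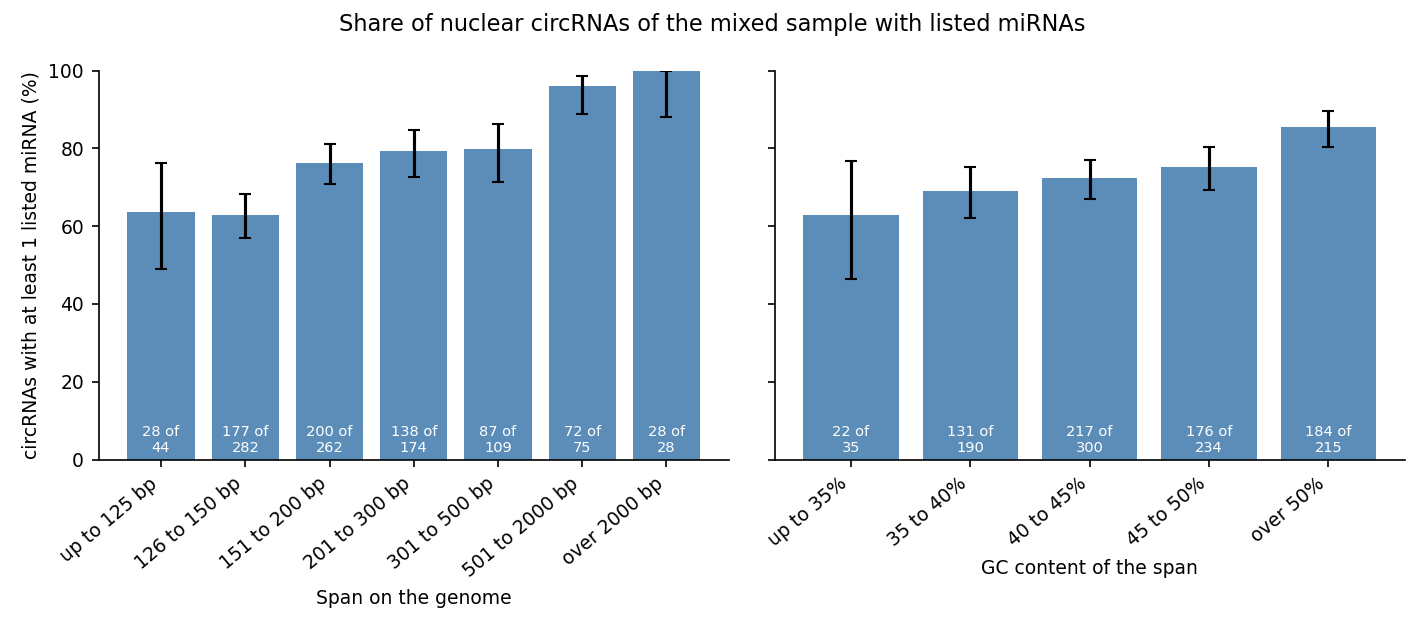
Share of nuclear circRNAs of the mixed sample with at least 1 listed miRNA (vertical axis, %) by span class (left) and by GC content of the span (right), with Wilson 95% intervals as error bars and the counts in each bar. The share is 62.8% at 126 to 150 bp and 96.0% at 501 to 2000 bp, and it is 62.9% at a GC content up to 35% and 85.6% over 50%.

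Base composition of the span moved in the same direction. The median GC content was 44.9% (44.4 to 45.6) in the 730 circRNAs and 43.0% (42.2 to 44.1) in the dash circRNAs. Among the circRNAs of 126 to 200 bp, which differ little in length, the share with listed miRNAs was 41.9% (31.3 to 53.3) for the 74 with a GC content up to 40%, 64.5% (56.7 to 71.6) for the 155 of 40 to 45%, 72.3% (65.0 to 78.5) for the 166 of 45 to 50%, and 84.6% (77.9 to 89.5) for the 149 over 50%. The intervals of the lowest and the highest class did not overlap.

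Median read support was the same in both groups. The median was 4 back-spliced reads in the 730 circRNAs and 4 in the dash circRNAs (95% interval 4 to 4 in each), and 29.3% and 28.7% of them, respectively, rested on 2 reads, the lowest number in the list. At least 10 reads supported 90 of the 730 and 33 of the 244 dash circRNAs. At least 100 supported 6 of the 730 and none of the dash circRNAs, whose highest count was 75. The share with listed miRNAs was 75.4% (70.0 to 80.0) for circRNAs with 2 reads and 73.2% (64.7 to 80.2) for those with 10 or more. The share on each chromosome ran from 71.2% (62.1 to 78.8) on chromosome 4 to 78.9% (73.5 to 83.5) on chromosome 1, with overlapping intervals.

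Most circRNAs listed few miRNAs. A single name was listed for 216 of the 730 (29.6%), 2 names for 154 and 3 names for 101, and the median was 2 with quartiles of 1 and 4. Per kb of span, the median was 10.9 listed names (95% interval 10.05 to 11.9), with quartiles of 6.68 and 18.6. Pooled over the members' 389.8 kb it was 9.28 names per kb, and over all nuclear circRNAs, with the dash circRNAs at 0, it was 8.31. The pooled rate was higher in short circRNAs, at 13.9 names per kb for spans of 151 to 200 bp and 6.17 for spans over 2000 bp. It rose with GC content, from 4.98 names per kb up to 35% GC to 18.2 over 50% GC. The 28 circRNAs over 2000 bp held 1227 of the 3617 pairs (33.9%) but 484 of the 5206 reads. Their median GC content was 37.9%.

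**Figure D3:**
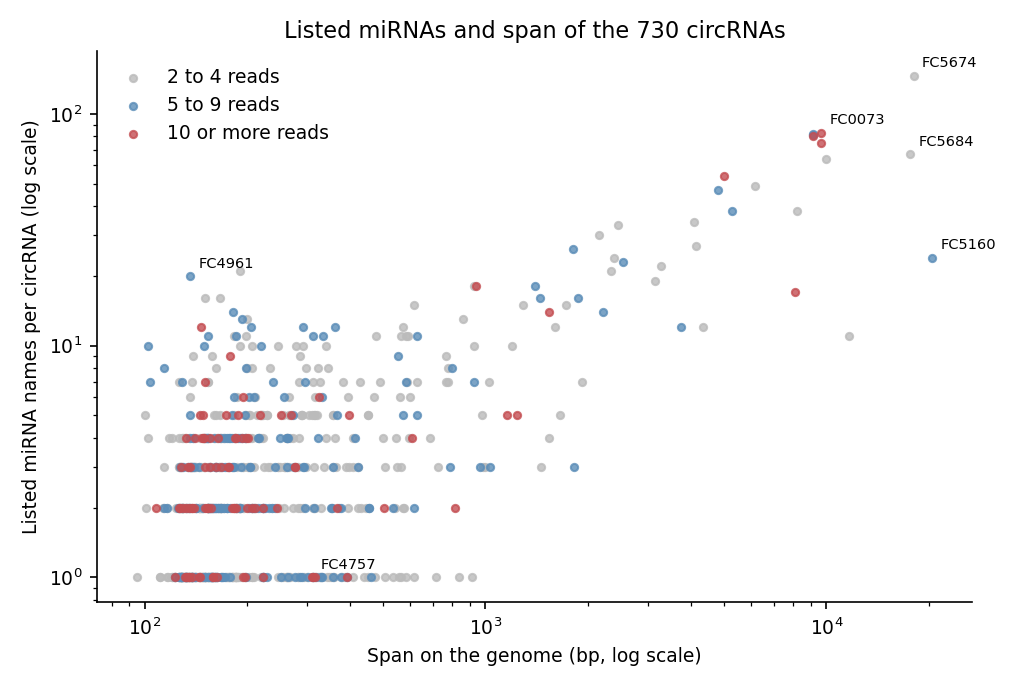
Listed miRNA names (vertical axis, log scale) against span in bp (horizontal axis, log scale) for the 730 circRNAs, coloured by back-spliced reads, with 6 circRNAs named. Most points lie at 1 to 4 names and under 400 bp, and the highest is Ath_circ_FC5674 with 146 names over 18030 bp.

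The circRNAs with the most listed miRNAs were long intervals of 5005 to 18030 bp. Ath_circ_FC5674, on the plus strand of chromosome 3 from 4131153 to 4149182, listed 146 names of 76 families from a span of 18030 bp, and it rested on 2 reads. Ath_circ_FC0073 listed 83 names and had 195 reads, and Ath_circ_FC4759 listed 75 names and had 138 reads. These latter circRNAs overlap almost completely on chromosome 5, where they begin at 3005360 and 3005411. Each spans 9664 bp, from the glycosyl hydrolase gene AT5G09700 into the region beyond it. The pseudogene AT1G43740 gave Ath_circ_FC5017, Ath_circ_FC5135 and Ath_circ_FC4815, with 82, 81 and 80 names, 6, 5 and 16 reads, and spans of 9123, 9123 and 9137 bp. The remaining members of the 10 with the most names were Ath_circ_FC5684 (67 names, 2 reads), Ath_circ_FC5641 of the peroxisomal NAD carrier gene PXN (64 names, 2 reads), Ath_circ_FC4829 (54 names, 14 reads) and Ath_circ_FC5505 (49 names, 3 reads).

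Several of these intervals start and end in the same sequence. At Ath_circ_FC0073 and Ath_circ_FC4759 a run of 59 identical bases lies at both ends of the interval, and at Ath_circ_FC5017, Ath_circ_FC5135 and Ath_circ_FC4815 the runs were 34, 57 and 103 bases. With such ends the exact joining point within the run cannot be placed. Ath_circ_FC0073 runs from 3005360 to 3015023 and Ath_circ_FC4759 from 3005411 to 3015074, both on the plus strand. Start and end are thus shifted by the same distance, which is shorter than the run of 59 bases. They could be alternative placements of the same junction, which was not tested, although the list counts their reads and names separately. Runs of 20 or more bases were found in 13 of the 730 circRNAs (1.78%) and in 2 of the 244 dash circRNAs (0.82%), and 6 of the 13 were among the 28 circRNAs over 2000 bp. Whether the repeats have a part in the read counts was not tested.

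Apart from Ath_circ_FC0073 and Ath_circ_FC4759, the circRNAs with the most reads listed few miRNAs. The most reads, 413, fell on Ath_circ_FC4757 at AT2G01008 near the start of chromosome 2, which listed 1 miRNA, miR168b-3p, over 310 bp and has a run of 32 identical bases at its ends. For this circRNA the paper reports a product of outward-facing primers from cDNA but not from genomic DNA, and Sanger sequencing of the junction. After Ath_circ_FC0073 and Ath_circ_FC4759 came Ath_circ_FC4760 with 112 reads and Ath_circ_FC4761 with 109 reads, both of AT1G15405 and both with 4 names. The Spearman correlation of reads and listed names over the 730 circRNAs was 0.07, and that of span and listed names was 0.40, both given as descriptions of circRNAs that share 1 library.

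The circRNAs with the most listed names per kb listed large families with identical or near-identical members. Ath_circ_FC4961 of CPSRP54, a subunit of the chloroplast signal recognition particle, listed 20 names in 136 bp (147.1 per kb) and had 8 reads, and these names stand for 8 different mature sequences of 6 families. The intergenic Ath_circ_FC5316 listed 21 names in 191 bp (109.9 per kb, 10 sequences, 4 reads). Ath_circ_FC5502 of LHCB3, a light-harvesting protein of photosystem II, listed 16 names in 150 bp (106.7 per kb, 5 sequences, 3 reads), of the families miR169 and miR172. Ath_circ_FC4904 of AT1G56190, listed as intronic, had 10 names in 102 bp (98 per kb, 9 reads), all of miR169. Ath_circ_FC5297 of TIP2, a water channel of the vacuole membrane, had 16 names in 166 bp (96.4 per kb, 4 sequences, 4 reads). The shortest circRNA, Ath_circ_FC5740 of AT4G35750, spans 95 bp and listed miR161.1 alone.

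Repeated sites of 1 miRNA, the arrangement known from animal sponges, were uncommon. A miRNA with 2 or more listed sites occurred in 66 of the 730 circRNAs. The most sites of 1 miRNA, 48, were those of miR5015 in Ath_circ_FC5715, an intergenic interval of 11684 bp on chromosome 4 with 2 reads. The longest circRNA, Ath_circ_FC5160, spans 20441 bp of intergenic chromosome 3, had 5 reads and listed 24 names at 262 sites. These names stand for 14 different mature sequences, and names that share a sequence count the same sites again. For example, 21 sites are listed under each of miR5635a to miR5635d.

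The parent genes were mostly represented by 1 circRNA. A gene was listed for 697 of the 730, in 581 genes, of which 536 had 1 such circRNA, 32 had 2 and 13 had 3 or more, and 26 of the 581 genes also gave a dash circRNA. By RefSeq biotype, 633 of the 730 lay in protein-coding genes, 35 in genes for non-coding RNA and 19 in pseudogenes. Of the 35, 33 came from AT1G15405 alone, and of the 19, 9 came from AT5G55896 and 3 from AT1G43740. The content listed was exon for 487 (66.7%), exon followed by intron for 186 (25.5%), intergenic for 33, intron followed by exon for 18 and intron alone for 6, and among the dash circRNAs 72.1% were listed as exon and 17.6% as exon followed by intron. The 5 genes with the most members gave 73 circRNAs (10%) and 835 reads.

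The gene with the most circRNAs was AT1G15405, whose product is a non-coding RNA transcribed from the minus strand of chromosome 1, with 33 circRNAs and 615 reads. Their counts ran from 2 to 112 with a median of 8, and 15 had 10 or more reads. The list gave 29 of them, with 572 reads, on the plus strand, opposite to the gene, and 4, with 43 reads, on the gene's strand. All 33 share a stretch of 75 bases and differ in where they start (15 positions) and end (9 positions). The best-scoring alignments on the plus strand lie in this locus as follows, with the bases in capitals pairing with the seed.
miR168a-5p at chr1:5298019-5298033, plus strand: ccgccugagCCAAGC
miR5660 at chr1:5298006-5298025, plus strand: uccacugcaagaACCgCCUg
miR8165 at chr1:5297991-5298009, plus strand: ccucacgcauugcCCUCCA
miR5665 at chr1:5298113-5298132, plus strand: ccgagccaguguUCCACCAa
The score is that of a gapped alignment in which a pair in the seed weighs 4 times a pair elsewhere, with a threshold of 140, and it was 144 for miR168a-5p, 165 for miR5660, 145 for miR8165 and 151 for miR5665. In miR168a-5p, 6 of the 7 seed bases were paired. The span of 31 of the 33 circRNAs holds the site of miR168a-5p, that of 30 the site of miR5660, that of 29 the site of miR8165 and that of 19 the site of miR5665. The numbers of circRNAs for which these families were listed were the same, 31, 30, 29 and 19. Pairing over the whole length was poor at these places: scored as a plant target, where each mismatch adds 1 point, each G-U pair adds 0.5 and both count double at miRNA positions 2 to 13, the best position on the strand of Ath_circ_FC4760 had a penalty of 11.5 for miR168a-5p and 7.0 for miR5660, against a customary limit of 4.

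**Figure D4:**
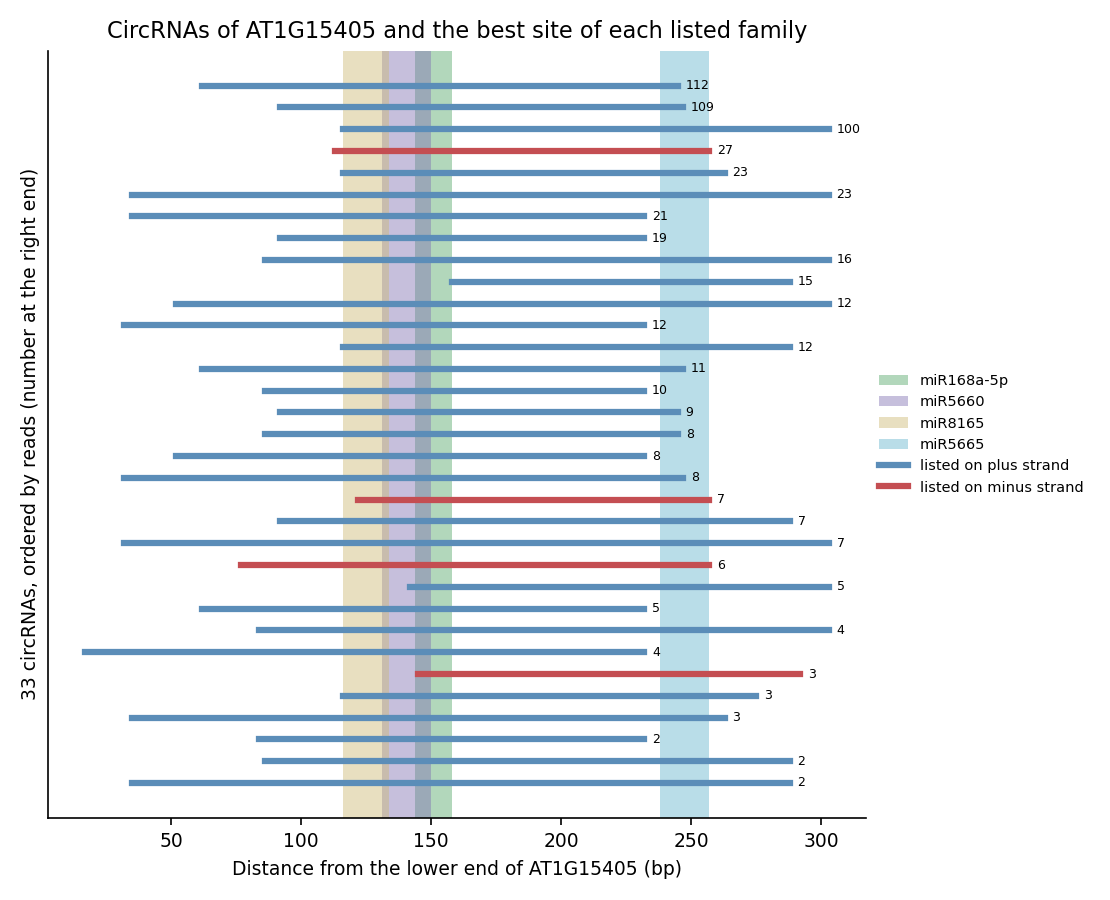
The 33 circRNAs of AT1G15405 as lines over the distance in bp from the lower end of the gene, blue where listed on the plus strand and red on the minus strand, ordered by back-spliced reads (number at the right end of each line), with the best site of each of the 4 listed families as a shaded band. The band of miR168a-5p is crossed by 31 lines and that of miR5665 by 19.

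Other genes with many circRNAs also repeated the same families. The gene of the glycine-rich RNA-binding protein GRP7 (AT2G21660), whose own expression follows the circadian clock, gave 14 circRNAs with 50 reads, of which 13 listed miR8181 and 9 listed miR8171, and 3 dash circRNAs. AT2G31141 gave 9 circRNAs with 72 reads, and each of these listed miR2111, miR5638, miR841 and miR869. The pseudogene AT5G55896, described as a transposable element gene, gave 9 circRNAs with 40 reads, all with miR5027. AT5G53440, a zinc finger protein gene by its RefSeq product, gave 8 circRNAs with 58 reads, of which 7 listed miR167. AT1G43740, Lhca5, LOS1, AT1G79990 and ELP gave 3 circRNAs each, with 27, 22, 19, 17 and 15 reads. The 3 circRNAs of Lhca5, a photosystem I antenna protein, all listed miR163 and nothing else, whereas no family was common to the 3 circRNAs of LOS1, a translation elongation factor, or to those of the coatomer gene AT1G79990.

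Nearly all listed sites lay on the plus strand of the genome, whichever strand the circRNA came from. The plus strand of the genome held an alignment with a score of at least 140 for 3607 of the 3617 listed pairs (99.7%, Wilson 95% interval 99.5 to 99.8), and the minus strand for 986 (27.3%, 25.8 to 28.7). For the 1726 pairs of the 354 circRNAs listed on the minus strand, the plus strand held such an alignment in all 1726 and the strand of the circRNA in 397 (23.0%, 21.1 to 25). For the 1891 pairs of the 376 circRNAs listed on the plus strand, the plus strand held it in 1881. The 10 exceptions fell in 6 plus-strand circRNAs.

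Long spans reach the score on either strand for many miRNAs, so the contrast was clearer in spans of at most 400 bp. There, 937 of 937 listed pairs of minus-strand circRNAs had the score on the plus strand, and 27 (2.88%, 1.99 to 4.16) had it on the strand of the circRNA. Pairs of the same circRNAs with miRNAs that were not listed had it in 3.71% (3.60 to 3.82) on the plus strand and 3.75% (3.64 to 3.86) on the minus strand. A perfect match to all 7 seed bases lay on the plus strand for 35.3% and on the minus strand for 1.39% of those 937 listed pairs. Over members of any length, 376 of 376 plus-strand circRNAs and 46 of 354 minus-strand circRNAs (13%, 9.89 to 16.9) had the score for at least 1 listed miRNA on their own strand. Among the 694 circRNAs whose gene has an annotated strand, the sense strand of the gene held it for 302 of 302 plus-strand genes and 64 of 392 minus-strand genes (16.3%, 13 to 20.3). Which step of the prediction set the strand was not tested.

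**Figure D5:**
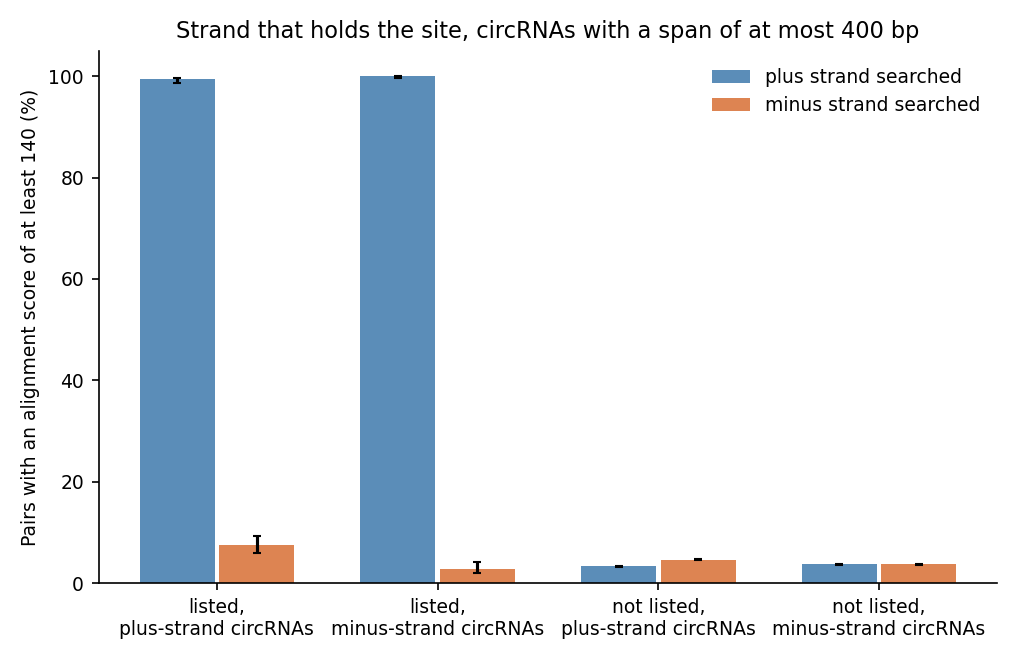
Share of pairs of a circRNA and a miRNA with an alignment score of at least 140 (vertical axis, %) on the plus strand (blue) and on the minus strand (orange) of the genome, for circRNAs of at most 400 bp, with Wilson 95% intervals as error bars. Listed pairs reach the score on the plus strand in 99.3% for plus-strand circRNAs and in 100% for minus-strand circRNAs, and pairs that are not listed reach it in 3.31 to 4.64% on either strand.

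The places found in the genes above show the same. In each of the following pairs the circRNA was listed on the minus strand while the site lies on the plus strand, so that the sequence shown is the complement of the circRNA.
miR8181 in Ath_circ_FC4905 of GRP7, chr2:9265613-9265633, plus strand: cuguauccuccucCACCCuCg
miR2111a-3p in Ath_circ_FC4797 of AT2G31141, chr2:13272082-13272096, plus strand: gguccgacCCGAGGA
miR167d in Ath_circ_FC4819 of AT5G53440, chr5:21683800-21683819, plus strand: ccaucaucagcuuCAGCUUC
miR168b-3p in Ath_circ_FC4757, chr2:2885-2898, plus strand: uggaacgAGACGGg
These sites scored 156, 154, 157 and 147, and the first 3 lie in coding exons, with the parent gene on the minus strand. The site in AT5G53440 also overlaps the neighbouring AT5G53430 on the plus strand. The span of 11 of the 14 circRNAs of GRP7, of all 9 of AT2G31141 and of 7 of the 8 of AT5G53440 holds the site shown. On the strand of the circRNA the lowest plant-type penalty was 15 for miR8181, 14 for miR2111a-3p, 15 for miR167d and 13.5 for miR168b-3p.

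Among pairs that reach the score, the predicted duplexes of listed pairs had lower free energies than those of unlisted pairs. The free energy was computed for the miRNA with a short window of sequence around its best plus-strand site. It had a median of -21.0 kcal/mol (quartiles -23.4 and -19.3) in the 3607 listed pairs that reach the score, and 65.4% of them were at -20 kcal/mol or lower. It had a median of -14.8 in the 17755 pairs of the 730 circRNAs with the 382 names that reach the score but were not listed, of which 6.78% were at -20 or lower, and of -14.6 in the 3145 such pairs of dash circRNAs. Listed pairs also scored higher, with a median of 154 against 146, and the energies differed within each class of scores. The list is itself a prediction from sequence, so these values describe which pairs it holds and are no evidence of binding. Whether an energy limit was used to make it was not tested. The medians of listed and unlisted pairs were -21.0 and -14.6 at scores of 140 to under 150, -20.6 and -15.0 at 150 to under 160, -21.4 and -15.6 at 160 to under 170, and -22.1 and -16.9 at 170 or more. In long spans, many listed pairs reached the score only beyond the exons of the listed gene. For spans over 3000 bp, all 1082 listed pairs had the score on the plus strand of the span, and 418 (38.6%, 35.8 to 41.6) had it on the exons of the listed gene joined together. Exons of other genes in the span were left out, so sites outside all exons were not told apart. In spans of at most 400 bp the joined exons held the score for 99.5% of listed pairs of minus-strand circRNAs and 98.9% of those of plus-strand circRNAs. The whole span was used where no exon of a listed gene overlapped it.

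Sites of the plant type were rare among the listed pairs. On the strand of the circRNA, with its ends joined, 11 of the 3617 pairs (0.304%, Wilson 95% interval 0.170 to 0.544) had a site with a penalty of at most 4, 10 of them in plus-strand circRNAs. None of the 93208 pairs of dash circRNAs and listed miRNA names had one. The dash circRNAs were chosen for having no listed site, and their longest span is 646 bp. They total 45.33 kb, against 389.8 kb for the circRNAs with listed miRNAs. Their lack of plant-type sites is therefore no independent comparison, and no conclusion is drawn from it. Among listed pairs, the sites with the lowest penalties are shown with the bases opposite the seed in capitals.
miR414 in Ath_circ_FC5084 of AT4G33060, chr4:15950169-15950189, plus strand, penalty 1.0: ugacgaugaugguGAAGAUGa
miR164a in Ath_circ_FC5674, chr3:4145631-4145651, plus strand, penalty 2.5: agcauguacccugCUUCUCCa
miR414 in Ath_circ_FC5543 of DCL1, chr1:27197-27217, plus strand, penalty 3.0: ugaccaagaugauGAAGGUGa
miR414 in Ath_circ_FC5269 of MEE29, chr2:14873228-14873248, plus strand, penalty 3.5: ggcugaucaugauGAAGAUGa
miR775 in Ath_circ_FC5543 of DCL1, chr1:27227-27246, plus strand, penalty 3.5: uggaacugcuagACAUAGAg
The miR414 site in Ath_circ_FC5084, a circRNA of the cyclophilin gene AT4G33060 with 6 reads, differed from full pairing by 1 G-U pair. It pairs with the mature miR414 sequence uCAUCUUCaucaucaucguca, a run of repeated triplets. The miR164a site is in a coding exon of AT3G12977, a NAC domain gene of the family that miR164 is known to target. That gene lies within the 18030 bp of Ath_circ_FC5674 on the plus strand, the same strand as the circRNA, and the circRNA has 2 reads. The names miR164a and miR164b-5p share this sequence, and miR164c-5p has the same site and penalty. The other pairs at a penalty of 4.0 were miR2934-3p in Ath_circ_FC5135, miR5021 in Ath_circ_FC5212, miR447c-3p in Ath_circ_FC5557 of the plastid glyceraldehyde-3-phosphate dehydrogenase gene GAPCP-2, and miR5026 in Ath_circ_FC5575, which have 5, 4, 2 and 2 reads.

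The 3 most frequent families had no listed site of this type. Their best listed pairs on the strand of the circRNA were the following.
miR156h in Ath_circ_FC5337 of HSC70-1, chr5:554488-554507, plus strand, penalty 5.0: gugaucuuguucUUCUGUCc
miR167a-5p in Ath_circ_FC5614 of GLDP2, chr2:11112564-11112584, plus strand, penalty 5.0: cagauguugcuggUAGCUUUa
miR168b-3p in Ath_circ_FC5381 of CESA6, chr5:25883912-25883932, plus strand, penalty 8.5: gguuggacuaugcAAGACGGu
HSC70-1, which encodes a cytosolic chaperone, and GLDP2, which encodes a subunit of glycine decarboxylase, lie on the minus strand, opposite to their circRNAs, which have 4 and 2 reads. CESA6, a cellulose synthase gene, lies on the strand of its circRNA, which has 4 reads.

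The search also found plant-type sites that the list does not name. A penalty of at most 4 was reached on the strand of the circRNA by 17 of 275243 unlisted pairs of the 730 circRNAs (0.00618%). Among listed pairs the share was 0.304%. The 17 pairs were of 5 miRNA families, and all were in members on the minus strand. Names that share a sequence and circRNAs that share a site count separately here. The clearest are shown here and were chosen after their values were seen.
miR2111a-5p in Ath_circ_FC5684 of AT3G27150, chr3:10010764-10010784, minus strand, penalty 2.0: gaaaccuaaggauGCAGAUUa
miR5643a in the intergenic Ath_circ_FC5687, chr3:13587141-13587161, minus strand, penalty 2.0: gaaacccgaucuuAAAAGCCu
miR414 in Ath_circ_FC4819 of AT5G53440, chr5:21683788-21683808, minus strand, penalty 3.0: ugaugauggugauGGAGAUGg
The site of miR2111a-5p, whose mature sequence is uAAUCUGCauccugagguuua, is in a coding exon of AT3G27150, a kelch repeat gene known as the miR2111 target, and Ath_circ_FC5684 has 2 reads. The site in AT5G53440 was shared by 7 of its 8 circRNAs, with 2 to 16 reads.

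CircRNAs of classical miRNA target genes did not list the miRNA of their own gene. A list of 79 such genes of 21 families was used, and 5 of the genes gave 6 circRNAs, of which 5 had listed miRNAs. The families of these genes were listed elsewhere, miR168 for 57 of the 730 circRNAs (7.81%), miR166 for 33 (4.52%), miR162 for 30 (4.11%) and miR172 for 19 (2.60%). With shares this low, the lack of such a listing among 6 circRNAs says little about these genes. AGO1, the target of miR168, gave Ath_circ_FC4787 with 31 reads, which listed miR3932b-5p and miR780.2, and Ath_circ_FC5018 with 6 reads, which listed miR5029. DCL1, the Dicer that cuts miRNA precursors and a target of miR162, gave Ath_circ_FC5543 with 2 reads and 5 names, among them the miR414 and miR775 shown above. REV, a leaf polarity factor and target of miR165 and miR166, gave Ath_circ_FC5102 with 6 reads and 3 names. TOE2, a flowering repressor and target of miR172, gave Ath_circ_FC4898 with 10 reads and 4 names. The circRNA of PHB, Ath_circ_FC4850 with 12 reads, carried a dash. The lowest penalty of the gene's own family in these 6 circRNAs ran from 11 in that of TOE2 to 13, far above the limit of 4. No annotated mature miRNA lies within the span of any of the 730 circRNAs.

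The share of circRNAs with both ends on annotated exon boundaries was below that of the reference. The intervals did not overlap over all circRNAs but did in several subsets. Both ends coincided with a RefSeq exon start and an exon end in 302 of the 730 (41.4%, Wilson 95% interval 37.9 to 45) and in 127 of the 244 dash circRNAs (52.0%, 45.8 to 58.2). With at least 5 reads the shares were 41.3% (35.8 to 46.9) and 66.3% (56.8 to 74.7). The difference was smaller without the genes that gave many circRNAs. Without the 5 genes with the most members the shares were 45.8% (42.0 to 49.6) and 52.9% (46.6 to 59.1), with overlapping intervals, and at 5 or more reads they were 48.4% (42.3 to 54.5) and 67.0% (57.4 to 75.3). With 1 circRNA per gene, the one with the most reads, the shares were 49.5% (45.4 to 53.6) and 58.1% (51.3 to 64.7). Among circRNAs of 126 to 200 bp they were 36.6% (31.9 to 41.6) and 44.9% (37.6 to 52.5). In both settings the intervals overlapped. The strand listed for the circRNA was that of its gene for 522 of 694 (75.2%, 71.9 to 78.3) and for 189 of 232 dash circRNAs (81.5%, 76.0 to 85.9), with overlapping intervals. On the strand of the gene, 57.7% (53.4 to 61.8) of the 522 and 67.2% (60.2 to 73.5) of the 189 had both ends on exon boundaries, with overlapping intervals.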

How the data were processed

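The mixed library was sequenced once. The authors aligned reads to TAIR10 with TopHat2 (base calls by CASAVA 1.8), predicted circRNAs with find_circ at 2 or more back-spliced reads, and deposited for each circRNA the raw count of back-spliced reads, its gene and the predicted miRNAs. For miRNA sites the methods name TargetFinder, with no version or strand given, but nothing states that the deposited column of miRNAs is its output. The paper reports putative miRNA sites for only a small part of its circRNAs, whereas this column names miRNAs for most nuclear circRNAs of the mixed library. The shares given here are therefore not the paper's result on miRNA sites. Few of the listed pairs met a plant-type limit when searched again. Counts were used as deposited. A deposited score column of the series list, headed as a mean of junction reads, served only to attach circRNA names. Starts were converted from 0-based to 1-based. Columns of read numbers scaled by depth were not used.

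Mature miRNAs, genes and exons were read from RefSeq TAIR10.1 (all 382 listed names and 579 of 581 parent genes matched), and families were defined by miRNA number. All 427 annotated mature names were searched against all 974 nuclear circRNAs on both strands, without gaps (mismatch 1, G-U 0.5, doubled at positions 2 to 13, limit 4) and, chosen after seeing the data, with gaps (pair 5, G-U 1, mismatch -3, gap opening -9, extension -4, times 4 at positions 2 to 8, score of 140 or more). Duplex energies came from ViennaRNA 2.7.2, and statistics from scipy 1.17.1 and pandas 2.3.3 in python 3.11.15. On simulated circles 200 of 200 planted sites were recovered with their penalty and position. Shares have Wilson intervals and medians binomial order-statistic intervals at 95%. With 1 library no test was run. CircRNAs were named if among the 10 with most listed miRNAs, the 5 with most reads or most names per kb, the longest or the shortest. Families were named if among the 10 most frequent or with a classical target among the parent genes. Genes were named if among the 10 with most circRNAs (3 or more) or if a classical target. Pairs were named if among the 5 lowest penalties or best of the 3 most frequent families, and other names were chosen after seeing values. The members and lists were chosen with earlier results of these data known. Alternatives covered read minimum, unit counted, length measure, site definition, strand and exon tolerance.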

Additional observations from a re-analysis of the deposited data

Results flagged for a closer look

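CircRNAs of the organelles lie outside the comparisons above, and the list names miRNAs for them too. A miRNA was listed for 87 of 195 chloroplast circRNAs (44.6%, Wilson 95% interval 37.8 to 51.6) and for 39 of 48 mitochondrial circRNAs (81.2%, 68.1 to 89.8), with no control samples to set beside them. The 87 chloroplast circRNAs held 5457 pairs with miRNA names, more than the 3617 pairs of the 730 nuclear circRNAs. Their median was 3 listed names per circRNA, against 2 for the 730, so these pairs were unevenly spread over the chloroplast circRNAs.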

How the results depend on the processing

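Of 34 alternatives to the values above, 18 stayed within the interval of the value or within 1.5 times a count, and 16 moved. For the most frequent family only the count was compared, so some settings with another leading family are among the 18. The share with listed miRNAs moved to 70.3% with the chloroplast and mitochondrial circRNAs added. The median number of listed names per kb moved to 11.9 with at least 5 reads, 7.93 with families, 13.3 per kb of exon length, 9.28 as total over total span and 8.84 with different mature sequences. The median span moved to 178 bp as exon length. The most frequent family was miR156 in the main count (58 circRNAs) and by parent genes (53), but it was miR168 with at least 5 reads (34), with spans of at most 2000 bp (52) and with the score required on the own strand (45), and by single names miR5653 led (52). The share of listed pairs with a site moved to 0.138% at a penalty of at most 3. With the gapped score of 140 it moved to 63.0% on the circRNA's own strand, 99.7% on the plus strand and 27.3% on the minus strand. The share with both ends on exon boundaries moved to 45.8% without the 5 genes with the most members, 49.5% with 1 circRNA per gene, 36.6% for spans of 126 to 200 bp and 57.7% on the gene's strand. The gapped score, different sequences and these 4 boundary settings, and 3 others that did not move a value, were chosen after seeing the data. No paired analysis was possible because the mixed sample is 1 library. At a median of 4 reads per circRNA, presence rests on few molecules, and the miRNA list was made from sequence, so that depth affects which circRNAs are listed and not their sites.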
